A study of Mus musculus with 48 samples.

Results

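The nuclear-encoded subunits of respiratory complexes II, III, IV and V, together with cytochrome c, were examined in the substantia nigra (SN) of mice injected with α-synuclein (α-syn) and breathing 21% or 11% O2. Members were taken by gene symbol: Sdha to Sdhd for complex II, Uqcr genes and Cyc1 for complex III, Cycs for cytochrome c, Cox4 to Cox8 genes and Ndufa4 for complex IV, and Atp5 genes for complex V. The rule found 50 of the 19601 genes in the batch-corrected tables, of which 4 belong to complex II, 9 to complex III, 1 is Cycs, 19 belong to complex IV and 17 to complex V. A total of 47 of them passed the filter on low counts, which 14839 genes passed in all, and Cox7b2, Cox8b and Cox8c did not.

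All mice were C57BL/6J males, 121 days old at injection, and all received a unilateral injection of α-syn into the striatum, so that none was uninjected. The injected protein was either preformed fibrils (PFF) or monomeric α-syn as the control, and the SN was harvested 90 to 98 days later. In the corrected tables, 11 monomer mice and 12 PFF mice breathed 21% O2, and 9 monomer mice and 10 PFF mice breathed 11% O2. The series' design text places the move to 11% O2 midway between injection and harvest, whereas the study's methods place it directly after injection, and the sources used here do not settle which applies. Messenger RNA was measured by bulk RNA sequencing of dissected tissue, so that fewer cells of a type and less RNA per cell cannot be told apart.

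Each of the 42 mice had 12902996 to 17120921 counts. The study left out 6 further mice, 1 of the monomer group at 21% O2, 3 of the monomer group at 11% O2 and 2 of the PFF group at 11% O2, and results that rest on their absence are given with and without them. Mice were harvested in 3 batches, and the monomer group at 21% O2 had no mouse in batch 3 while the monomer group at 11% O2 had none in batch 2. All 7 dopaminergic neuron markers were detected, with a summed level of 1068 to 5298 TPM (a transcript level scaled by gene length and library size) across the 42 mice.

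Complex II oxidizes succinate and passes its electrons to ubiquinone. Complex III passes them on to cytochrome c, complex IV hands them to oxygen, and complex V uses the resulting proton gradient to make ATP. Several subunits of complex IV exist as paired isoforms from separate genes, one found in most tissues and the other enriched in muscle, testis or lung. The subunit IV pair Cox4i1 and Cox4i2 is known for a switch towards Cox4i2 in cultured cells under hypoxia, and Ndufa4, a subunit of complex IV, has a hypoxia-induced paralogue, Ndufa4l2.

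Start-site sequences are shown for Cox6b2, whose difference with O2 passed the threshold with both injections in the mice that the study kept. That difference did not pass when the left-out mice were included. Sequences are also shown for Atp5j2, the member with the smallest adjusted p between PFF and monomer mice at 21% O2. Sdhb is shown as a member that carries several motifs of known respiratory gene regulators. RefSeq (GRCm38.p6) gave a window of 300 bases, 250 before and 50 after the start, for 38 of the 50 members. The motifs searched on both strands were the hypoxia response core (ACGTG or GCGTG), the NRF1 motif GCATGCGC, the ETS motif CCGGAAG, the YY1 motif AAGATGGC and the ERR motif AAGGTCA, and matches are in capitals below, in the orientation of the gene. Cox6b2 lies at chr7:4753045-4753344 on the minus strand, Atp5j2 at chr5:145191492-145191791 on the minus strand and Sdhb at chr4:140961021-140961320 on the plus strand.
Cox6b2: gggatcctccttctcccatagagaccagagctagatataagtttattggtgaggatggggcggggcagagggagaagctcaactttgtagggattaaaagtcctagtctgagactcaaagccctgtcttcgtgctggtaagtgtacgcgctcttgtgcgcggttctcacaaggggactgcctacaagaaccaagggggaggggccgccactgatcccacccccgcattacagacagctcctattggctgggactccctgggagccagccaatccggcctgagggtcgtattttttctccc
Atp5j2: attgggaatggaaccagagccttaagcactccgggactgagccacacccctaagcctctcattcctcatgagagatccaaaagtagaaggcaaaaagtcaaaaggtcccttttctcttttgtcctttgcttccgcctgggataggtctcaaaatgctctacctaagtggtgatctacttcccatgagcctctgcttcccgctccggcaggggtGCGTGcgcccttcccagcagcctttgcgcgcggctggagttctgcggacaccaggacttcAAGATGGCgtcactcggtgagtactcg
Sdhb: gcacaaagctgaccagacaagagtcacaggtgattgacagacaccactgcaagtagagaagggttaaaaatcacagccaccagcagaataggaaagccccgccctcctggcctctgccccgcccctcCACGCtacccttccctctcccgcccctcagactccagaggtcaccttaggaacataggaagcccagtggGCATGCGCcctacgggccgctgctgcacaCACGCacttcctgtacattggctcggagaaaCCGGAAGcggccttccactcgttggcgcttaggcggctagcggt

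The Cox6b2 window held no match to any of these letters. The Atp5j2 window held GCGTG with its first base at -37 from the start and AAGATGGC at 23. The Sdhb window held CACGC, the reverse complement of GCGTG, at -123 and -25, GCATGCGC at -54 and CCGGAAG at 6. Over the 38 windows of members, the hypoxia response core was found in 30 (78.9%, against 46.7% of the 27025 genes with a window), the NRF1 motif in 8 (21.1% against 3.05%) and the ETS motif in 13 (34.2% against 9.93%). The YY1 motif was found in 3 (7.89% against 3.19%) and the ERR motif in 5 (13.2% against 5.38%). A match describes the letters of a window and does not show binding.

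Most members were abundant, and by mean level a small set of tissue isoforms lay below the ubiquitous set. The ranges met at the border, where Cox6b2 reached 28.9 TPM and the ubiquitous Atp5l began at 28.4 TPM. The 50 genes together made up 1.44% to 1.73% of all TPM in a mouse. By mean TPM over the 42 mice, Atp5a1 (the catalytic core's alpha subunit of complex V) was highest at 1242, followed by Cox6a1 at 1173, Atp5b (its beta subunit) at 1080, Cox4i1 at 1024 and Cox8a at 1018. The ranges of these genes overlapped from one to the next. At the other end, Cox7a1 and Cox6b2 averaged 21.3 and 20.7 TPM, Cox4i2 6.15, Cox6a2 4.81, Cox7b2 2.51 and Cox8b 2.20. Cox8c, a testis isoform, was listed at 0 in every mouse but 1 PFF mouse at 21% O2, at 0.585 TPM.

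**Figure D1:**
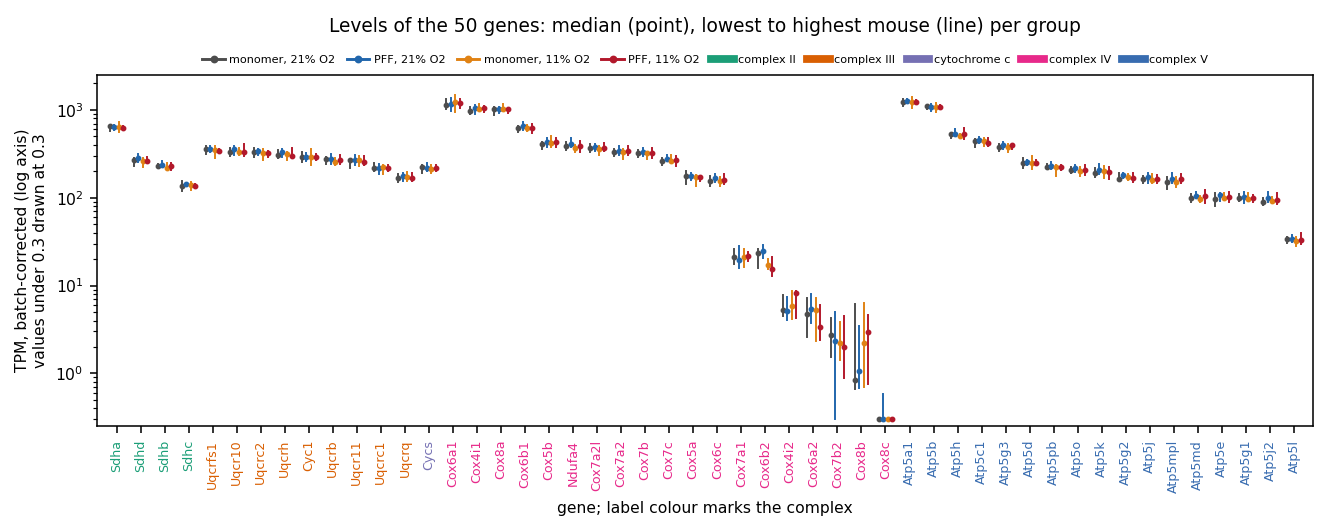
Levels of the 50 genes in TPM on a log axis, with the median of each group as a point and its lowest to highest mouse as a line. The ubiquitous subunits lie at or above 28.4 TPM with group ranges that overlap, and the tissue isoforms Cox7a1, Cox6b2, Cox4i2, Cox6a2, Cox7b2, Cox8b and Cox8c lie at the bottom of complex IV.

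Summed by complex, the levels of the 4 groups overlapped. The summed TPM of complex IV was 6220 ± 313 (SD, n = 11) in monomer mice at 21% O2, 6435 ± 368 (n = 12) in PFF mice at 21% O2, 6378 ± 355 (n = 9) in monomer mice at 11% O2 and 6371 ± 341 (n = 10) in PFF mice at 11% O2. For complex V the means were 5480, 5602, 5399 and 5468 TPM in the same order, for complex III 2539, 2621, 2530 and 2527 TPM, and for complex II 1284, 1303, 1265 and 1256 TPM. In each complex the mean of PFF mice at 21% O2 was the highest of the 4, and the ranges of all 4 groups overlapped.

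**Figure D2:**
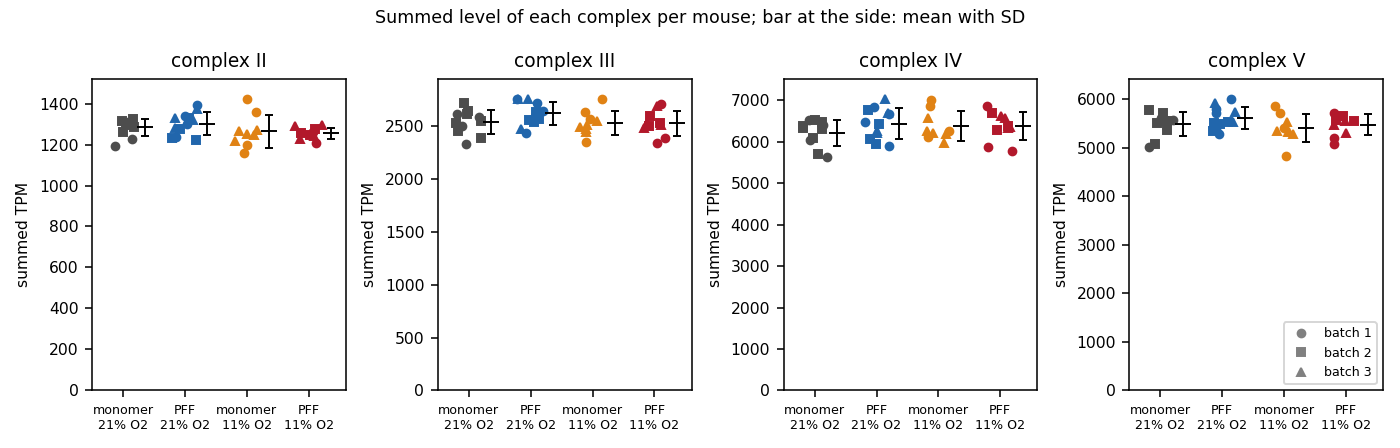
Summed TPM of the members of each complex per mouse, by group and harvest batch (marker shape), with the mean and SD beside the points. The 4 groups overlap in every panel, for example from 5636 to 6521 TPM in monomer mice and from 5899 to 7020 TPM in PFF mice at 21% O2 for complex IV.

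The first question was whether sustained low O2 changed the expression of these complexes, of which complex IV consumes O2. In monomer mice, 1 of the 47 members tested, Cox6b2, was called at an adjusted p under 0.05 and a log2 fold change beyond 0.25 (edgeR's quasi-likelihood test), whereas 7.23% of all genes were. At an unadjusted p under 0.05 it was also the only member, against 27.7% of all genes. The members' median log2 fold change was -0.010, with 20 higher and 27 lower at 11% O2 (47.9% of all genes were higher), and 44 of 47 members had a 95% interval inside -0.25 to 0.25, as had 55.2% of all genes. The medians by complex were -0.016 for complex II, 0.009 for complex III, 0.010 for complex IV and -0.015 for complex V.

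In PFF mice, Cox6b2 was again the member called, and 0.58% of all genes were. A total of 6 members had an unadjusted p under 0.05, against 10.7% of all genes, and 41 of 47 were lower at 11% O2 while 46.8% of all genes were higher. The median was -0.040, and the medians by complex were -0.069 for complex II (0 of 4 higher), -0.049 for complex III (1 of 9 higher), -0.032 for complex IV (4 of 16 higher) and -0.034 for complex V (1 of 17 higher). This lean was not shared by all batches. The median was -0.090 in batch 1 and -0.062 in batch 3 but 0.037 in batch 2, where 35 of 47 members were higher, and with all 48 mice before correction it was -0.0013 with 23 higher.

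**Figure D3:**
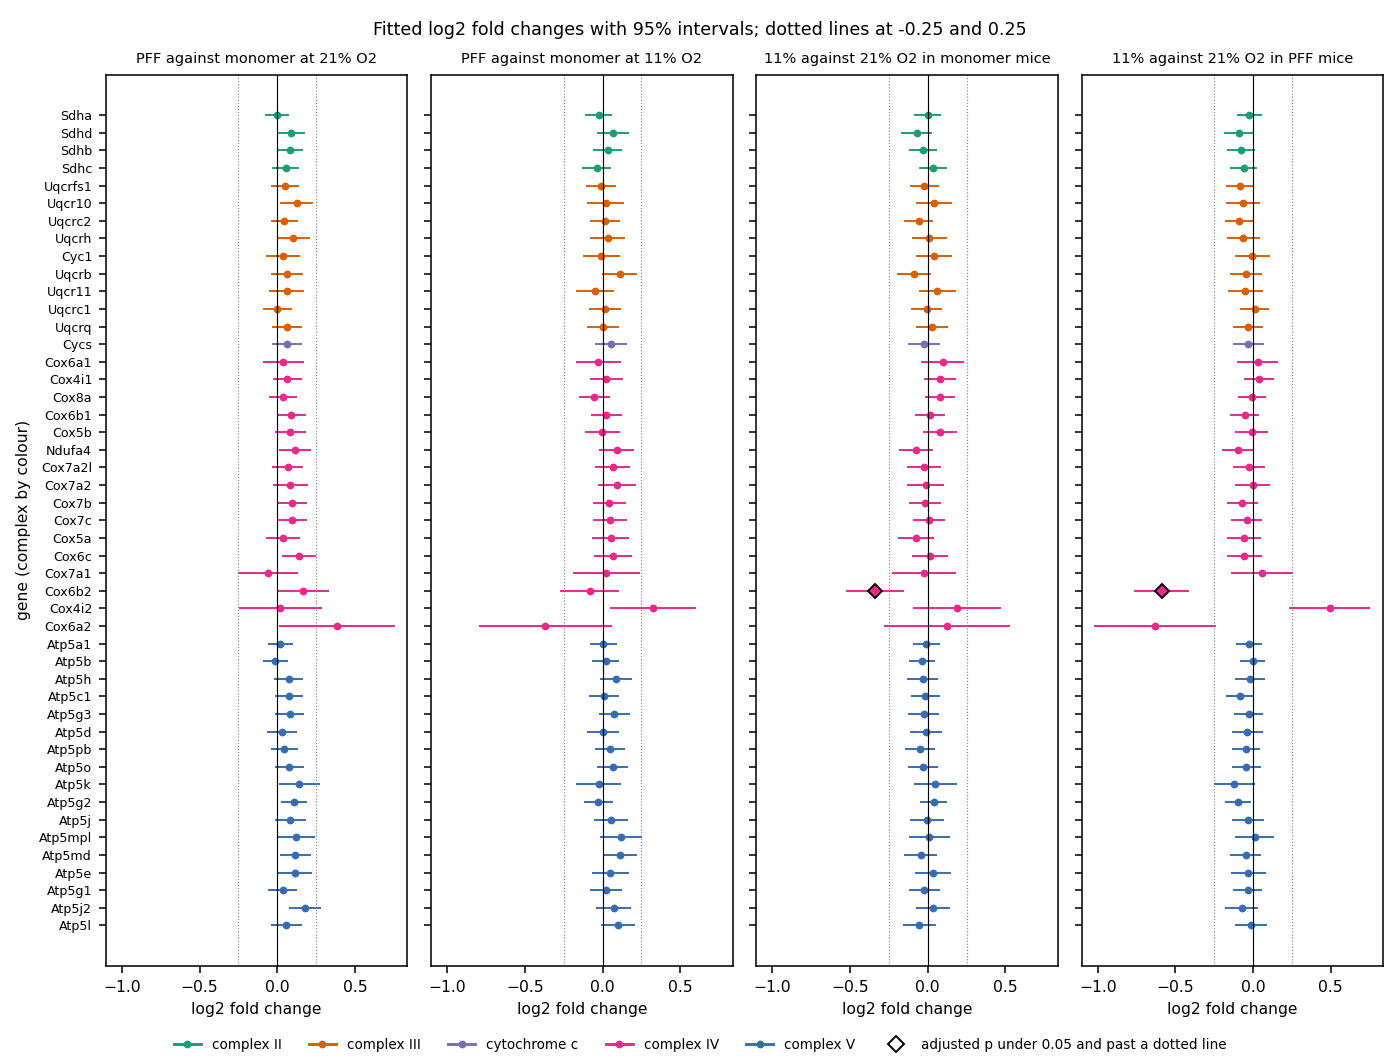
Fitted log2 fold changes (points) with 95% intervals (lines) of the 47 members tested, coloured by complex, in 4 comparisons. Cox6b2 is the 1 member marked as called, in both comparisons of 11% with 21% O2, at -0.34 and -0.59, and most other intervals lie between the dotted lines at -0.25 and 0.25.

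Cox6b2 encodes the testis-enriched isoform of subunit VIb, which helps join complex IV monomers into dimers (ENSMUSG00000051811.14, chr7:4751792-4753094, minus strand, GRCm38, with no overlapping gene). Its lowest, median and highest levels were 16.0, 23.5 and 25.8 TPM in monomer mice at 21% O2 and 15.6, 17.15 and 20.1 TPM in monomer mice at 11% O2. They were 20.6, 24.9 and 28.9 TPM in PFF mice at 21% O2 and 12.9, 15.6 and 21.4 TPM in PFF mice at 11% O2. The groups at 11% O2 lay lower with both injections, with an overlap of ranges in each. The log2 fold change was -0.34 in monomer mice (SE 0.0884, 95% interval -0.52 to -0.16, edgeR adjusted p = 0.00758) and -0.59 in PFF mice (SE 0.0847, -0.76 to -0.42, adjusted p = 2.02e-05). These 2 effects were not shown to differ, with an interaction of -0.25 (-0.49 to -0.0013, adjusted p = 0.322).

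The ubiquitous partner Cox6b1 averaged 620, 652, 624 and 628 TPM in monomer and PFF mice at 21% O2 and monomer and PFF mice at 11% O2. Its log2 fold change with 11% O2 was 0.01 in monomer mice (95% interval -0.08 to 0.10) and -0.05 in PFF mice (-0.14 to 0.03). Cox6b2 was 3.63% and 3.82% of Cox6b1 at 21% O2 and 2.85% and 2.64% at 11% O2.

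The lower Cox6b2 level at 11% O2 was present in each batch before correction, without reaching an adjusted p under 0.05 in any one of them. In PFF mice the log2 fold change was -0.50, -0.73 and -0.58 in batches 1 to 3 (adjusted p from 0.0846 to 0.504), and in monomer mice it was -0.18 in batch 1 (adjusted p = 0.544), the only batch with both groups. It rested on the mice that the study kept. With the 48 mice together, uncorrected and with a batch term, the values were -0.18 in monomer mice (adjusted p = 0.601) and -0.29 in PFF mice (adjusted p = 0.412). Before correction, the left-out mice at 11% O2 had Cox6b2 at 21.0, 24.6 and 27.4 TPM in the monomer group and 34.9 and 40.9 TPM in the PFF group, each above the highest kept mouse of its group (18.8 and 21.2 TPM), and the left-out monomer mouse at 21% O2 had 34.0 TPM against at most 23.7. Put back alone, PFF mouse 5 ended the call in PFF mice (-0.41, adjusted p = 0.103), and each of the 3 monomer mice at 11% O2 ended the call in monomer mice (-0.32 to -0.28, adjusted p from 0.0533 to 0.121). Among the left-out mice, 1 PFF mouse had 3134594 counts in all.

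**Figure D4:**
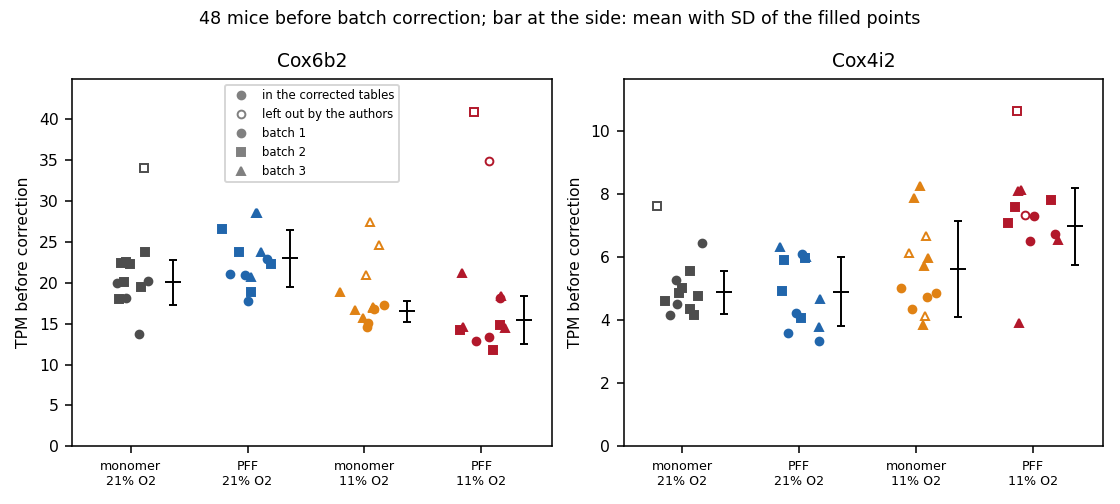
TPM of Cox6b2 and Cox4i2 before batch correction in 48 mice, with kept mice filled, left-out mice open, batches by marker shape, and the mean and SD of the kept mice beside the points. All 6 left-out mice lie above the kept mice of their group for Cox6b2.

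The isoform Cox4i2 did not pass the threshold by itself. It lies at chr2:152754173-152765037 on the plus strand (ENSMUSG00000009876.13) and had 11 to 28 corrected counts per mouse, so that each value carries a wide counting error. Its lowest, median and highest levels were 4.03, 5.18 and 7.47 TPM in PFF mice at 21% O2 and 4.22, 8.19 and 8.77 TPM in PFF mice at 11% O2. Of the 10 PFF mice at 11% O2, 9 were at or above 7.06 TPM and 1, replicate 10, was at 4.22 TPM, within the range at 21% O2. The log2 fold change was 0.49 (SE 0.127, 95% interval 0.24 to 0.75, edgeR adjusted p = 0.0545), and without replicate 10 it was 0.57 (adjusted p = 0.0193). With the 48 mice before correction it was 0.57 and called (adjusted p = 0.0189), and DESeq2 on the 42 mice gave an adjusted p of 0.150.

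In monomer mice the lowest, median and highest Cox4i2 levels were 4.49, 5.23 and 7.78 TPM at 21% O2 and 4.19, 5.81 and 8.62 TPM at 11% O2, which overlap over most of their range. The log2 fold change there was 0.19 (95% interval -0.09 to 0.46, adjusted p = 0.417), and the difference between the O2 effects of the injections did not pass the test (interaction 0.31, adjusted p = 0.534). Cox4i1, the ubiquitous isoform (chr8:120668222-120674207, plus strand), averaged 990 TPM in monomer mice at 21% O2, 1022 in PFF mice at 21% O2, 1042 in monomer mice at 11% O2 and 1049 in PFF mice at 11% O2. Its log2 fold change with 11% O2 was 0.08 in monomer mice (-0.02 to 0.17) and 0.04 in PFF mice (-0.05 to 0.13). All 5986 bases of Cox4i1 lie within Gm20388, an annotated gene on the same strand, and 352 of them overlap Emc8 on the other strand, so that its counts, and the ratios formed with them, depend on how shared reads were assigned.

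As a ratio within each mouse, Cox4i2 was 0.554% of Cox4i1 in monomer mice and 0.540% in PFF mice at 21% O2, and 0.598% and 0.737% at 11% O2. The mean log2 ratio rose by 0.46 with 11% O2 in PFF mice (SE 0.146, exact two-sided permutation p = 0.00581, adjusted over the 4 comparisons 0.0233). In monomer mice the difference was 0.08 (exact permutation p = 0.537, adjusted 0.630). Between PFF and monomer mice it was 0.32 at 11% O2 (exact permutation p = 0.0634, adjusted 0.127) and -0.06 at 21% O2 (exact permutation p = 0.630, adjusted 0.630). The difference at 11% O2 passed the same exact permutation test with the 48 mice before correction, at 0.39 (adjusted p = 0.0276), and without PFF replicate 10, at 0.41 (adjusted p = 0.0109). It did not pass that test with the 42 mice before correction, at 0.30 (adjusted p = 0.165), and it was 0.62 in batch 1 and -0.015 in batch 3. The 48 mice include the PFF mouse of lowest depth, which had 6 Cox4i2 counts. The permutation test has no batch term. Of the 48 mice, batch 3 held 8 monomer and 4 PFF mice at 11% O2, and batch 2 held 0 and 4, so that batch and injection are mixed in that test before correction. In PFF mice the difference with 11% O2 was 0.71, 0.43 and 0.30 in batches 1 to 3 on TPM before correction (exact permutation p = 0.114, 0.0571 and 0.343). Batches 1 and 2 compare 3 mice with 4, for which the smallest p is 0.0571. The difference with 11% O2 in monomer mice was -0.23 in batch 1, against 0.08 over all.

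**Figure D5:**
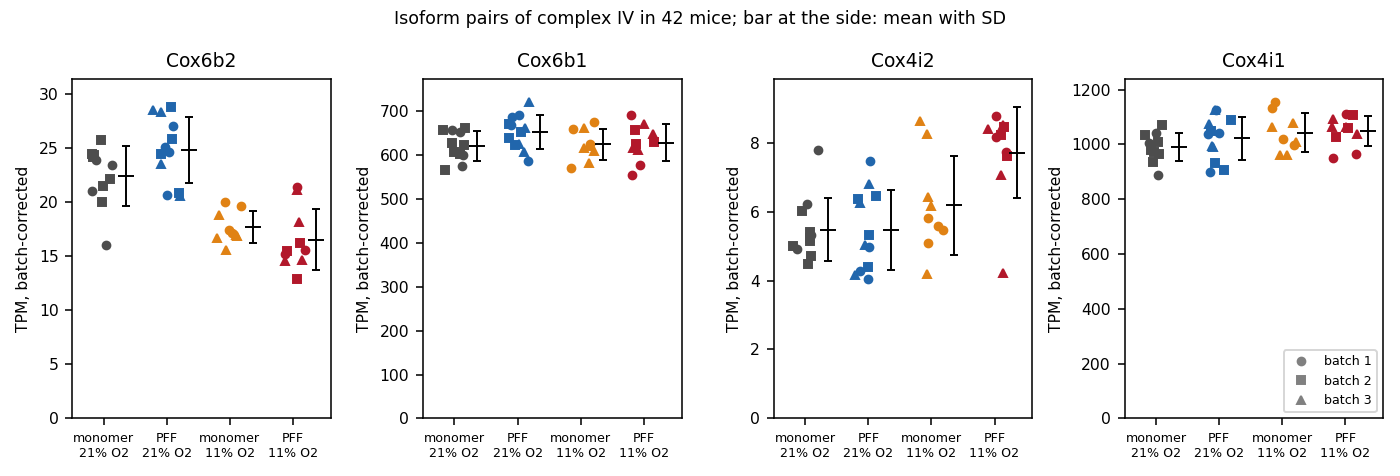
TPM per mouse of the pairs Cox6b2 and Cox6b1 and Cox4i2 and Cox4i1, by group and batch (marker shape), with mean and SD beside the points. Cox6b2 lies lower at 11% O2 (means 17.7 and 16.55 TPM against 22.5 and 24.9), Cox4i2 is highest in PFF mice at 11% O2 (7.71 TPM, with 1 mouse at 4.22), and the ubiquitous partners overlap between groups.

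Markers of pericytes, vessel-wall cells in which Cox4i2 is known to be expressed, were among the genes called with 11% O2. These were 7.23% of all genes in monomer mice and 0.58% in PFF mice. Of 9 pericyte markers, 6 were called higher in monomer mice (median log2 fold change 0.52) and 3 in PFF mice (median 0.31), none of them was at 0, and their summed TPM ranged from 230 to 352 and 205.9 to 445 in monomer and PFF mice at 21% O2 and from 299 to 639 and 292 to 399 at 11% O2. Their part in the Cox4i2 result was not tested. With group means subtracted, the correlation of Cox4i2 with the 9 markers over the 42 mice ran from -0.18 to 0.28, and with Cox4i1 it was -0.19. The 5 genes with the highest correlation among 14513 were Net1 (0.54), Mrvi1 (0.53), Ism1 (0.51), Mthfd2l (0.51) and Rbl1 (0.50), all from the same libraries.

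Ndufa4, whose protein sits in complex IV (chr6:11900292-11907497, minus strand), averaged 389 TPM in monomer mice and 415 in PFF mice at 21% O2, and 368 and 388 TPM at 11% O2. Its log2 fold change with 11% O2 was -0.08 in monomer mice (95% interval -0.18 to 0.03, adjusted p = 0.347) and -0.10 in PFF mice (-0.20 to 0.0020, adjusted p = 0.480). Its paralogue Ndufa4l2 rose by 0.66 on the log2 scale with both injections (adjusted p = 0.000635 in monomer mice and 0.00304 in PFF mice), from 6.04 to 9.52 TPM and from 5.34 to 8.48 TPM. Even so it was 2.60% and 2.19% of Ndufa4 at 11% O2, against 1.55% and 1.28% at 21% O2. The 9 pericyte markers had medians of 0.52 in monomer mice and 0.31 in PFF mice with 11% O2, and their part in the Ndufa4l2 rise was not tested.

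In the other isoform pairs of complexes IV and V, no member that was tested was called with 11% O2, and Cox7b2, Cox8b and Cox8c were too low to be tested. Cox6a2, the striated muscle isoform of subunit VIa, lies inside Itgad and had 6 to 22 corrected counts per mouse. Its levels were 5.85 ± 1.49 TPM (SD, n = 12) in PFF mice at 21% O2 and 3.75 ± 1.18 TPM (n = 10) in PFF mice at 11% O2, with ranges of 3.70 to 7.95 and 2.41 to 5.94 TPM that overlap. The log2 fold change was -0.63 (95% interval -1.02 to -0.24, adjusted p = 0.128), and the partner Cox6a1 differed by 0.03 (-0.10 to 0.16). Before correction, the 2 left-out PFF mice at 11% O2 had Cox6a2 at 6.17 and 11.4 TPM. The kept mice of that group had at most 5.18 TPM, and PFF mice at 21% O2 averaged 5.15 TPM. Cox7a1, the heart and muscle isoform of subunit VIIa, averaged 20.6 to 21.7 TPM in the 4 groups and was 6.07% to 6.66% of Cox7a2. The related Cox7a2l, which promotes supercomplexes, averaged 357 to 376 TPM, and its log2 fold change was -0.02 in monomer mice and -0.03 in PFF mice. Cox7b averaged 316 to 338 TPM against 2.28 to 2.75 TPM of its testis isoform Cox7b2, and Cox8a averaged 1002 to 1056 TPM against 1.47 to 2.75 TPM of Cox8b. Atp5g1, Atp5g2 and Atp5g3 encode the same mature c subunit of complex V, with Atp5g3 highest, Atp5g2 at 43.0% to 46.4% of it and Atp5g1 at 25.6% to 26.7%.

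Among the members with the smallest p in each complex with 11% O2 in monomer mice, none other than Cox6b2 passed. Sdhd, a membrane anchor of complex II, differed by -0.07 (adjusted p = 0.319), while Sdhc and Sdhb differed by 0.03 and -0.03. In complex III, Uqcrc2 and Uqcr11 differed by -0.06 and 0.06, Uqcrb, a ubiquinone-binding subunit, by -0.09 (adjusted p = 0.252), and in complex IV Cox8a by 0.08 (adjusted p = 0.235). In complex V, Atp5pb and Atp5l differed by -0.05 each and Atp5b by -0.04. Their intervals stayed within 0.25 of 0.

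The next question was what PFF added to monomer injection. At 21% O2, edgeR called 0 of 47 members, as did DESeq2 and limma, against 3.7% of all genes by edgeR. By size the members leaned one way. A total of 43 of 47 were higher in PFF mice, against 50.4% of all genes, 17 had an unadjusted p under 0.05, against 22.4% of all genes, and the median log2 fold change was 0.074. The medians by complex were 0.067 for complex II (3 of 4 higher), 0.062 for complex III (8 of 9 higher), 0.062 for Cycs, 0.085 for complex IV (15 of 16 higher) and 0.078 for complex V (16 of 17 higher), and 42 of 47 intervals lay inside -0.25 to 0.25.

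Many of the members are short genes. Of the 47, 25 lie among the shortest 10% of the genes tested, and the longest is at percentile 71.8. The other 1458 genes of that size class had a median of 0.064 with 70.6% higher in PFF mice. With log2 fold changes centred within bins of gene length the members' median was 0.029, with 36 of 47 higher. Within batches, the median was 0.107 in batch 1 (44 of 47 higher) and 0.0086 in batch 2 (30 of 47 higher). No p-value is given for this lean, and the part of gene length in it was not tested.

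Atp5j2, the f subunit in the membrane part of complex V, was the 1 member with an adjusted p under 0.05 at 21% O2 (ENSMUSG00000038690.15, chr5:145183698-145192062, minus strand). Its lowest, median and highest levels were 83.7, 90.6 and 98.2 TPM in monomer mice and 90.3, 100.6 and 115.7 TPM in PFF mice. The PFF mice lay higher with overlapping ranges, at a log2 fold change of 0.18 (SE 0.0476, 95% interval 0.08 to 0.27, adjusted p = 0.0167), under the 0.25 needed for a call. With all 48 mice the adjusted p was 0.0642 at 0.17, and batches 1 and 2 gave 0.20 and 0.11 (adjusted p = 0.364 and 0.333). At 11% O2 its difference between PFF and monomer mice was 0.07 (-0.03 to 0.18).

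The members next by p at 21% O2 were Atp5g2 at 0.11 (adjusted p = 0.0666), Cox6c, a small structural subunit of complex IV, at 0.14 (adjusted p = 0.0903), Atp5md, a small subunit at the dimer interface of complex V, at 0.12 (adjusted p = 0.117), and Uqcr10, a small subunit of complex III, at 0.13 (adjusted p = 0.120). Uqcrh, the hinge protein of complex III, differed by 0.10 (adjusted p = 0.199), Uqcrq by 0.06, Ndufa4 by 0.11 (adjusted p = 0.148) and Cox6b1 by 0.09 (adjusted p = 0.188). In complex II, Sdhd and Sdhb, the iron-sulfur subunit, differed by 0.09 and 0.08 (adjusted p = 0.209 and 0.212), Sdhc by 0.05, and the catalytic Sdha by -0.0018 (-0.08 to 0.07). Values with an adjusted p above 0.05 are sizes and not calls.

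At 11% O2, 0 of 47 members were called between PFF and monomer mice by edgeR, DESeq2 and limma, and edgeR called 0% of all genes. A total of 3 members had an unadjusted p under 0.05, Cox4i2 at 0.32, Uqcrb at 0.11 and Atp5md at 0.11, each with an adjusted p of 1.00, against 3.92% of all genes. The median was 0.025, with 35 of 47 higher (49.6% of all genes were higher), and 44 intervals lay inside -0.25 to 0.25. Before correction, the batches differed, with 18 of 47 higher in batch 1 (median -0.019) and 41 in batch 3 (median 0.045). With all 48 mice and a batch term 40 were higher (median 0.045).

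The interaction, the change in the O2 effect between PFF and monomer mice, gave 0 of 47 members called by edgeR, DESeq2 and limma, against 2.14% of all genes by edgeR. A total of 3 members had an unadjusted p under 0.05, Cox6a2 at -0.75 (adjusted p = 0.144), Atp5g2 at -0.14 (adjusted p = 0.215) and Cox6b2 at -0.25, against 15.4% of all genes. A total of 36 of 47 members were below 0 (49.7% of all genes were above 0), with a median of -0.032, where the other genes among the shortest 10% had -0.051. This lean was not kept with all 48 mice before correction and a batch term, where 23 of 47 were above 0 (median -0.0023). In batch 1 alone before correction 3 were above 0 (median -0.12), and with centring on gene length 19 were (median -0.014). The PFF and O2 comparisons share the group of PFF mice at 21% O2, so that their leans are not independent.

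Among the assembly factors of complex IV, 1 of 23 tested was called with 11% O2 in monomer mice, where 7.23% of all genes were called. It was Cox20, a chaperone of subunit 2, which rose by 0.48 on the log2 scale (adjusted p = 0.0252). Between PFF and monomer mice at 21% O2, Surf1 and Cox19 had adjusted p = 0.0101 and 0.0284 at 0.14 and 0.16, under the size for a call. For complex III, Ttc19 differed by -0.22 with 11% O2 in monomer mice (adjusted p = 0.00329) and Uqcc3 by 0.18 between PFF and monomer mice at 21% O2 (adjusted p = 0.0218), and for complex V, Tmem70 differed by -0.15 with 11% O2 in monomer mice (adjusted p = 0.0369). None of the 6 factors of complex III, 5 of complex V and 4 of complex II was called in any comparison by edgeR, DESeq2 or limma, with at most 4, 1 and 1 of them at an unadjusted p under 0.05 in a comparison.

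Among 9 regulators of mitochondrial biogenesis, Ppargc1b, a coactivator of respiratory genes, fell by 0.32 on the log2 scale with 11% O2 in monomer mice (adjusted p = 0.0034). Between PFF and monomer mice at 21% O2 it differed by -0.248 (adjusted p = 0.0240), just under the size for a call, and in that comparison DESeq2 and limma each called 1 gene of the list. Yy1 differed by -0.19 in the latter comparison (adjusted p = 0.00171) and by 0.16 with 11% O2 in PFF mice (adjusted p = 0.0390). Both were called in the interaction, at 0.42 and 0.27, where 2.14% of all genes were called. Among 9 hypoxia-responsive regulators of respiration, Pdk1, which limits the entry of pyruvate into the citric acid cycle, rose by 0.33 in monomer and 0.29 in PFF mice (adjusted p = 4.12e-05 and 0.000769), and with Ndufa4l2 it made up the 2 calls of that list in each. Of all genes, 7.23% and 0.58% were called there.

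Markers of some other cell types were also called with 11% O2. Of all genes, 7.23% were called in monomer mice and 0.58% in PFF mice. Of 8 endothelial markers, 7 were called higher in monomer mice and 2 in PFF mice (medians 0.55 and 0.33), and of 5 red cell markers 5 and 0 were (medians 1.32 and 0.79, with all 5 in PFF mice at an unadjusted p under 0.05, and 0 called by DESeq2 and limma). Of 2 smooth muscle markers tested, Acta2 was called in monomer mice at 1.51 by edgeR but not by limma. In PFF mice both were lower at 11% O2 (median -0.29), and neither was called. Of 6 oligodendrocyte markers, Mog and Cnp were called in monomer mice, at 0.32 and 0.26. With 11% O2, edgeR, DESeq2 and limma called none of the markers of dopaminergic neurons, neurons, astrocytes, microglia, choroid plexus, meningeal fibroblasts and skeletal muscle with either injection, with at most 2 of a list at an unadjusted p under 0.05. Between PFF and monomer mice at 21% O2, Slco1a4 of the endothelial markers was called by edgeR, at 0.45, while limma called none of that list. There 6 of 6 oligodendrocyte, 6 of 6 microglia and 5 of 5 red cell markers had values above 0 (medians 0.047, 0.12 and 0.30), as had 1 of 8 neuron markers (median -0.053), beside 43 of 47 members and 50.4% of all genes. In the interaction, Mog and Pdgfrb were called, at -0.33 and -0.39, and 0 of the oligodendrocyte, microglia and red cell markers were above 0 (medians -0.16, -0.11 and -0.53), against 8 of 8 neuron markers (median 0.067), beside 11 of 47 members and 49.7% of all genes. The part of these markers in the members' values was not tested.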

How the data were processed

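Polyadenylated RNA of dissected mouse SN was sequenced as read pairs of 150 bases. Per the submitters' notes and the study's methods, the authors aligned reads to mm10 with STAR 2.7.5a, removed ribosomal reads and duplicates (Picard 2.21.9), and counted primary alignments per GENCODE gene without strand with featureCounts 2.0.1. They deposited the counts and TPM values of 48 mice, and of 42 mice and 19601 protein-coding genes after ComBat-seq batch correction that kept injection and O2 as covariates. Correction with these covariates can make groups look more separate, so counts before correction were fitted too. The authors left out 6 mice after a principal component analysis.

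The corrected counts were fitted in edgeR 4.0.16 (R 4.3.3, quasi-likelihood test, TMM scaling, filterByExpr by group, 4 groups in 1 fit, no batch term), with Benjamini-Hochberg adjustment over 14839 genes. Following the study's thresholds, genes were called where the adjusted p was under 0.05 and the size of the log2 fold change exceeded 0.25. The script was tested on simulated data. DESeq2 1.42.0 and limma 3.58.1 on log2(TPM + 1) were alternatives. The ratio of Cox4i2 to Cox4i1 used an exact permutation test (scipy 1.17.1) on TPM, adjusted over 4 comparisons. Levels between genes are compared in TPM only. Coordinates are those of GENCODE for GRCm38.

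The members and gene lists were chosen with earlier results of these data known. Named with values were Cox4i1, Cox4i2, Ndufa4, the isoform pairs, every called member, and the 3 members with the smallest p per complex in each of 2 comparisons (11% against 21% O2 in monomer mice, and PFF against monomer at 21% O2). The members at an unadjusted p under 0.05 at 11% O2 and in the interaction, and Sdha, were named after their values were seen. In the table before correction 10 further symbols, mostly pseudogenes, matched the rule with at most 29 counts each, and near-identical copies can share reads with a member. Each group consists of separate mice.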

Additional observations from a re-analysis of the deposited data

Results flagged for a closer look

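Of 70 sets of levels checked, 3 held a mouse far from the rest of its group, where chance gives about 1 in 20. Each set was a named member, or a sum over a complex or over all members, in a group of 9 or 10 mice. The sums share genes with the other sets, so that the sets are not independent. In monomer mice at 11% O2, the highest Atp5g1 level was 114.6 TPM and the next 101.7 TPM, and the lowest Atp5pb level was 174.9 TPM and the next 209.4 TPM. In PFF mice at 11% O2, the lowest Cox4i2 level was 4.22 TPM and the next 7.06 TPM.

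The 6 mice that the authors left out carried more Cox6b2, before correction, than any kept mouse of their group. The left-out monomer mouse at 21% O2 (replicate 10) had 34.0 TPM against at most 23.7 TPM. The left-out monomer mice at 11% O2 had 27.4 TPM (replicate 8), 24.6 TPM (replicate 9) and 21.0 TPM (replicate 12) against at most 18.8 TPM. The left-out PFF mice at 11% O2 had 34.9 TPM (replicate 2) and 40.9 TPM (replicate 5) against at most 21.2 TPM. The excess was not limited to Cox6b2. The same PFF mice also lay above every kept mouse of their group for Cox7a1 (28.9 and 33.4 TPM against at most 21.7) and Cox6b1 (678 and 708 TPM against 631). Their Ndufa4 (377 and 409 TPM) lay within the kept range of 319 to 415 TPM. The left-out monomer mouse at 21% O2 was above the kept mice for Cox4i2 (7.64 against 6.46 TPM) but not for Cox6a2 (3.93 against 6.34 TPM).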

How the results depend on the processing

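Of 2260 values of the 30 named members under alternative settings, 2165 kept their sign and their side of the threshold, where a change of sign was counted only if an unadjusted p under 0.05 stood behind either value. Between PFF and monomer mice at 21% O2, 1 member (Atp5j2) passed on the adjusted p alone. With 11% O2 in monomer mice the count of called members, 1 as reported, was 0 with all 48 mice, with 47 (without the PFF mouse of lowest depth), in batch 1 alone, and with PFF mouse 2 or 5 or monomer mouse 8, 9 or 12 at 11% O2 put back alone. With 11% O2 in PFF mice the count was 0 in each batch alone, and 2 (Cox6b2 and Cox4i2) under limma with either pseudocount or a TPM minimum, with centring on gene length and with PFF mouse 2 put back. Leaving out each mouse in turn, which was chosen after seeing the data as were the settings that put mice back, gave 1 to 2, with 2 without replicate 2, 5, 8 or 11 of the PFF mice at 21% O2 or replicate 10 of those at 11% O2. With 48 or 47 mice or PFF mouse 5 put back, the 1 member called with 11% O2 in PFF mice was Cox4i2 and not Cox6b2. With PFF mouse 5 put back, Cox6b2 was at -0.41 in PFF mice (adjusted p = 0.103). With batch 2 alone, Sdhd between PFF and monomer mice at 21% O2 was -0.077, and with 11% O2 in PFF mice Cox7a2 was 0.20, Sdhd 0.087 and Uqcrc2 0.012. With batch 3 alone, Uqcrb between PFF and monomer mice at 11% O2 was -0.0028. The difference in the log2 ratio of Cox4i2 to Cox4i1 between PFF and monomer mice was 0.13 at 21% O2 in batch 2. At 11% O2 it was -0.015 in batch 3 and 0.39 with 48 mice (exact permutation test with no batch term, adjusted p = 0.0276). With 11% O2 the ratio differed by -0.23 in monomer mice in batch 1 and by 0.71, 0.43 and 0.30 in PFF mice in batches 1 to 3, no longer past the threshold. Leaving out each mouse gave 0.25 to 0.41 between PFF and monomer mice at 11% O2, with the highest, past the threshold, without PFF replicate 10 (adjusted p = 0.0109), and 0.41 to 0.56 with 11% O2 in PFF mice (adjusted p at most 0.0438). The cause of these changes was not tested, and single batches hold fewer mice. Same-numbered mice did not deviate together (54 pairs, median correlation 0.003, 21 above 0.1). The study matched mice across groups, among other traits by weight, age and delivery date, and the pairs are not known here. The same number can fall in different harvest batches, so that this check cannot tell whether matched mice deviated together. A fit with the replicate number as a block gave Cox6b2 -0.30 and -0.60 and changed no call of a member. Over all genes that fit called 461 in place of 549 between PFF and monomer mice at 21% O2. Low counts limit Cox4i2 and Cox6a2.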
